A study of Mus musculus with 18 samples.

Results

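The effect of adding W465A to DNMT1 that already carries W796A was measured in 6 of the 18 libraries of the series, 3 with W796A and 3 with W465A/W796A, which are all libraries labelled with these 2 genotypes. All 6 come from mouse embryonic stem (ES) cells knocked out for their own Dnmt1 and stably transfected with mutant DNMT1 in the pPyCAGIP vector, which drives the insert from the constitutive CAG promoter and carries puromycin resistance. W796A replaces a tryptophan with alanine, and W465A/W796A replaces a second tryptophan, nearer the amino end, as well. No age, treatment or time point separates the groups, and the series labels the 3 libraries of a group as biological replicates. Several stable lines were made per group. Whether each replicate is another line is not stated, nor is the amount of DNMT1 in each, so p-values here measure the spread between these libraries. WT and W465A rescue libraries, 3 of each, serve as the other background, in which W465A was added to unmutated DNMT1.

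DNMT1 is the maintenance DNA methyltransferase: after replication it copies methylation from the parental strand onto the new strand at CpG sites. The residue changed by W465A lies in its replication foci targeting domain, which binds modified histone H3 tails and holds the enzyme inactive until it is recruited. The residue changed by W796A lies in the first of its bromo-adjacent homology domains, which reads methylated lysine 20 of histone H4, a mark of heterochromatin. The comparison addresses what the first of these residues contributes when the second is already mutated.

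The assay was eRRBS, the enhanced form of reduced representation bisulfite sequencing, in which restriction enzymes cut the genome, bisulfite converts unmethylated cytosine, and the short fragments are sequenced, so that CpG-rich sequence is over-represented. The level of a CpG is its methylated reads over all its reads, and 2449468 CpGs, 11.2% of the 21867550 listed, had at least 5 reads in all 6 libraries. A library held between 63624159 and 103408005 CpG calls, with a median of 10 to 17 reads at these CpGs. The promoter of Ina, an intermediate filament gene, had at most 0.18% methylation in any of the 6 libraries over 22 CpGs. It was chosen after its values were seen, and it limits incomplete conversion at that promoter.

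The mean level of the W796A libraries was 44.1% in replicate 1, 63.2% in replicate 2 and 58.5% in replicate 3. That of the W465A/W796A libraries was 43.3%, 38.0% and 37.6%. All 3 double mutant libraries lay below all 3 W796A libraries, but W796A replicate 1 stood apart from its group and was only 0.77 percentage points above the highest double mutant library. The group means were 55.2% ± 9.97 (SD, n = 3) and 39.6% ± 3.19 (SD, n = 3), a difference of -15.6 points, so that the double mutant had 71.7% of the W796A level. The exact two-sided permutation p was 0.1, the smallest that 3 libraries against 3 allow. Without W796A replicate 1 the difference was -21.2 points and the share of the level retained 65.1%. At CpGs with at least 20 reads in the 6 libraries, which number 199096, the difference was -4.18 points and the libraries of the groups overlapped.

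In these libraries the difference with W465A was larger in the WT background than in the W796A background. At the 1652694 CpGs with at least 5 reads in the 12 libraries of the 4 groups, W465A against WT was -28.5 points and left 42.4% of the level. W465A/W796A against W796A was -13.8 points there and left 72.3%. Between the backgrounds the changes were 14.7 points apart (standard error 7.06), a difference that was not tested. The 2 comparisons share no library.

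The regions that lost most and least are shown here by sequence, since neighbouring CpGs and base composition are what the later comparisons turn on. Each is a 150 bp window on the forward strand of GRCm38 inside a 1 kb tile chosen by a fixed rule, written 5′ to 3′ with CG in capitals where the CpG had at least 5 reads in all 6 libraries. The printed windows lie outside annotated exons. The first 3 come from tiles with the widest gaps between the lowest W796A and the highest double mutant library.
Osr1 tile, chr12:9576349-9576498: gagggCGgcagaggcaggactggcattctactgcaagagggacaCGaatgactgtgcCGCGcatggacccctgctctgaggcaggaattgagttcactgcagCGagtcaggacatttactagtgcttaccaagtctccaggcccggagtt
Tile upstream of H19, chr7:142581402-142581551: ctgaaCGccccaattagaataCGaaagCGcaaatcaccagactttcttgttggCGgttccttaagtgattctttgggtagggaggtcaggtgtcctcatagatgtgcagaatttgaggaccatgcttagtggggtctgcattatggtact
Ehbp1 tile, chr11:22007262-22007411: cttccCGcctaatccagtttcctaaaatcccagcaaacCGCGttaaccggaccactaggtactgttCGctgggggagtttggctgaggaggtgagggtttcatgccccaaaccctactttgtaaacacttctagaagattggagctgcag
The next 3 come from the tiles with the widest gap in the opposite direction, where the double mutant was higher.
Nav3 tile, chr10:110015640-110015789: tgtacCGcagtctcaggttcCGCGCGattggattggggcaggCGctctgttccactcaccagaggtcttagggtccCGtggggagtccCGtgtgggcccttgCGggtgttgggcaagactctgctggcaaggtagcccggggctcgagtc
Ipo11 tile, chr13:106533001-106533150: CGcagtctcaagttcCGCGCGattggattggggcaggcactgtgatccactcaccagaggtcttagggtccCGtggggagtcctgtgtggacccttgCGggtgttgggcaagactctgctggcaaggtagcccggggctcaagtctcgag
Gbe1 tile, chr16:71154102-71154251: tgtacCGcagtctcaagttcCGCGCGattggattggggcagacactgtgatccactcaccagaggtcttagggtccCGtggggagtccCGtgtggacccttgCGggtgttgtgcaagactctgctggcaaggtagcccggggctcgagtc
The last 2 come from tiles of high level in WT that kept the highest levels in the double mutant, and their CpGs stand in runs of alternating bases.
Smim20 tile, chr5:53385020-53385169: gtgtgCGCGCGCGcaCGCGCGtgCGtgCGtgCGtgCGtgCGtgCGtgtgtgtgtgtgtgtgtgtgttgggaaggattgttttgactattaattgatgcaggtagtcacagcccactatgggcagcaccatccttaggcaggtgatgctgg
Pcdh10 tile, chr3:44996573-44996722: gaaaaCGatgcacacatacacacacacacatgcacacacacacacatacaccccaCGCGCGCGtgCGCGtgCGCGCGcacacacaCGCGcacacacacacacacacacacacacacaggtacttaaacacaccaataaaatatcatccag
The windows of the second set are copies of one another. At the best ungapped offset, the Nav3 and Gbe1 windows were identical at 95.3% of 150 bases and the Ipo11 and Gbe1 windows at 97.2% of 145 bases.

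Among classes of CpG density, the smallest share of the level was left where CpGs were isolated. CpGs with no other CpG within 250 bp fell from levels of 58.4%, 83.5% and 78.5% in the W796A libraries to 50.5%, 44.6% and 42.0% in the double mutant, which left 62.2% of the level. With 1 to 5 CpGs within 250 bp, the CpG itself included, 68.4% was left, and with 6 to 10 it was 73.1%. The libraries did not overlap in any of these classes, and the gap between the groups narrowed from 7.93 points at isolated CpGs to 4.23 and 0.76 points. At 11 to 20 CpGs 73.6% was left and at over 20 it was 69.7%, and in both classes W796A replicate 1 lay below double mutant replicate 1. The planned log2 ratio of CpGs with 1 to 5 against those with over 20 changed by only -0.04 within libraries (exact permutation p 1). The sparse and the densest class were thus not separated by ratio. The planned difference of these classes in points was 53.2, 72.8 and 70.7 in W796A and 48.4, 44.4 and 41.4 in the double mutant. It changed by -20.8 without overlap (exact permutation p 0.1, adjusted 0.171).

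Up to 20 CpGs the wide spread of W796A varied less between classes than the share left, though over the first 3 classes both rose. W796A replicate 1 had 72.1% of the mean of replicates 2 and 3 at isolated CpGs, 73.0% at 1 to 5 CpGs, 73.2% at 6 to 10 and 71.6% at 11 to 20, and only the densest class stood apart, at 65.2%. A ratio of 2 regions inside one library removes what scales all its levels alike, so regions were compared as log2 ratios within each library. For CpGs with 1 to 5 CpGs within 250 bp, called sparse from here on, against those with 6 to 10, this ratio was 0.01, 0.01 and 0.02 in the W796A libraries, the low replicate 1 included. It was -0.07, -0.07 and -0.10 in the double mutant, a change of -0.10 with no overlap.

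**Figure D1:**
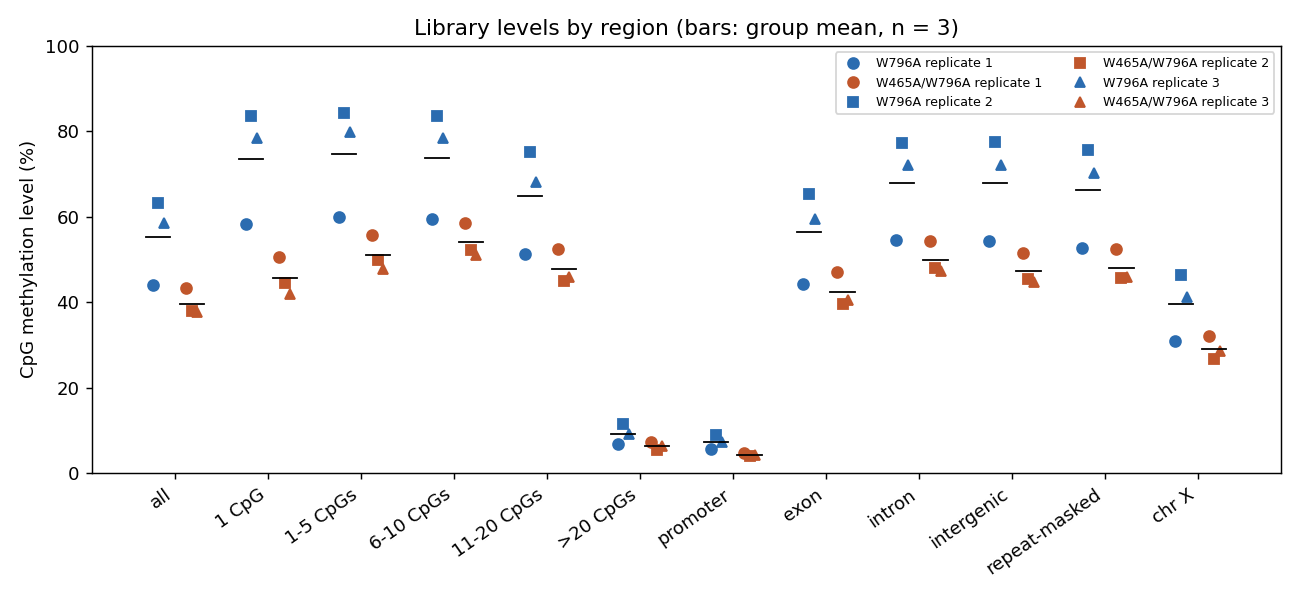
CpG methylation level in percent (vertical axis) of each W796A (blue) and W465A/W796A (orange) library by region; symbols mark the replicate and bars the group mean of 3. W796A replicate 1 sits beside the highest double mutant library for all CpGs, 44.1% against 43.3%, and stands clear of it at isolated CpGs, 58.4% against 50.5%.

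The share left differed with the bases next to the CpG. Among sparse CpGs, those with A or T on both sides kept 64.7% of the W796A level and those with C or G on both sides 72.4%. At isolated CpGs the shares were 58.3% and 67.2%, and the former group had the widest gap between the genotypes of any region examined by density and flank, 9.26 points. Of the flanks taken singly, ACGT kept least, 62.8%. CCGG, the site that MspI cuts, stood apart with a W796A mean of 15.3% over 745 CpGs. The within-library log2 ratio of the 2 flank classes was -0.11, -0.05 and -0.10 in W796A and -0.19, -0.26 and -0.30 in the double mutant, with an exact permutation p of 0.1 and an adjusted p of 0.171 over the 12 planned tests.

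Position relative to genes separated the libraries as well. Intergenic CpGs kept 69.5% of the W796A level, introns 73.4% and exons 75.2%. The groups were 2.84 points apart between genes and 0.05 points apart in introns, and they overlapped in exons. Levels between genes and in introns were alike in W796A, with within-library log2 ratios of 0.00, 0.01 and 0.00, and unlike in the double mutant, at -0.08 in all 3 libraries. Restricted to sparse CpGs the ratio was -0.02, 0.00 and -0.01 in W796A and -0.12, -0.12 and -0.13 in the double mutant.

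Around the transcription start sites (TSS) of protein-coding genes the gap between the groups was lopsided. From 2000 to 2500 bp upstream 68.4% of the level was left and the groups were 3.12 points apart. At that distance into the gene 69.8% was left and they were 0.14 points apart. From 2500 to 3000 bp into the gene 71.7% was left and they overlapped. In every 500 bp step from there to 10000 bp into the gene W796A replicate 1 lay below double mutant replicate 1. In the steps upstream as far as 10000 bp the groups overlapped in 1 alone, at 9000 to 9500 bp. The largest gap, 4.07 points, was 500 to 1000 bp upstream, where 56.8% of the level was left. The share left did not share this side. From 500 to 1000 bp into the gene it was 50.1%, below that upstream. From 1000 to 1500 bp it was 57.9% into the gene and 64.1% upstream, and from 1500 to 2000 bp 65.6% and 67.9%.

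**Figure D2:**
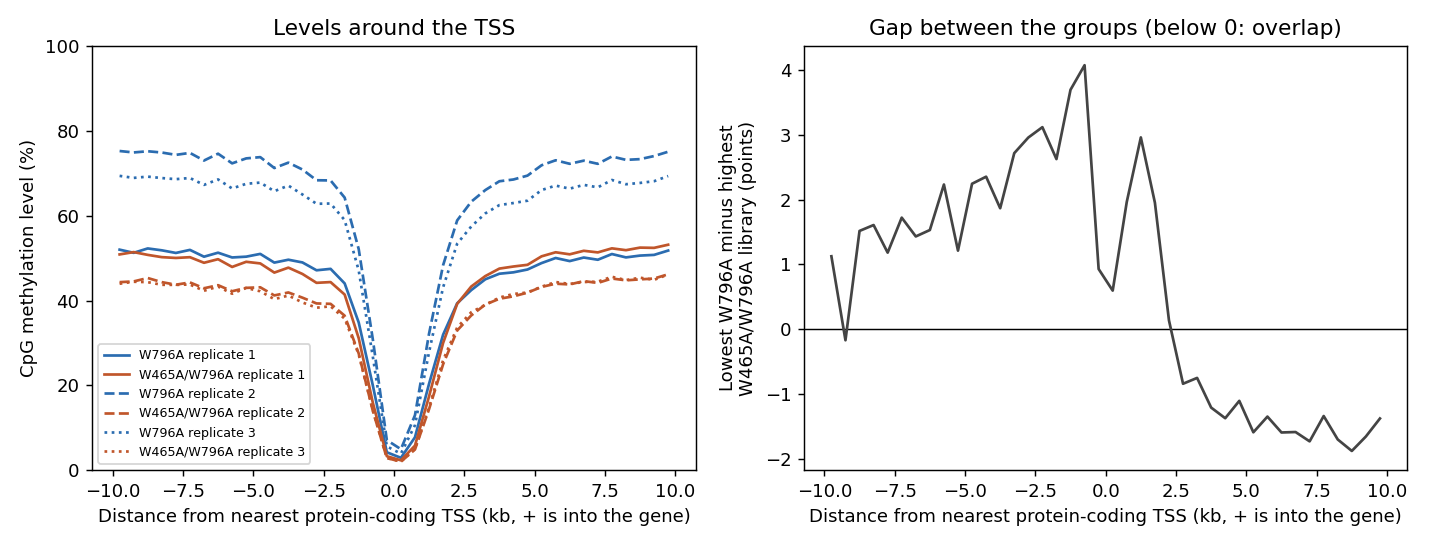
Left, level in percent of each library against distance in kb from the nearest protein-coding TSS, positive into the gene; right, the lowest W796A minus the highest W465A/W796A library in percentage points, where values below 0 mean overlap. The gap peaks at 4.07 points 500 to 1000 bp upstream and is below 0 in each step from 2500 bp into the gene onward.

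CpG-poor domains lost more than CpG-rich ones. CpGs were ranked by the number of reference CpGs in their 100 kb domain, with quartiles at 909, 1154 and 1405 CpGs. Sparse CpGs kept 64.5% of the W796A level in the poorest of the 4 classes of domains and 72.4% in the richest. In W796A these CpGs were more methylated in poor than in rich domains, with log2 ratios of 0.06, 0.06 and 0.07. In the double mutant the order was turned, with -0.08, -0.12 and -0.12. W796A replicate 1 had 72.6% of replicates 2 and 3 in the poor domains and 72.8% in the rich ones.

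These within-library ratios were examined in the other background too. At the CpGs usable in all 12 libraries, the domain ratio of sparse CpGs was 0.03, 0.02 and 0.08 in the WT libraries and -0.09, -0.19 and -0.14 in those of W465A, a change of -0.18. From W796A to W465A/W796A it changed by -0.15, and the 2 changes differed by 0.03 with a standard error of 0.04. The intergenic ratio of sparse CpGs changed by -0.11 in both backgrounds, differing by 0.0002 with a standard error of 0.016. Over all CpGs the intergenic ratio changed by -0.09 from WT to W465A and by -0.07 from W796A to W465A/W796A, 0.02 apart with a standard error of 0.01. Whether the changes differ between backgrounds was not tested.

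Permuting genotype labels within each background, 400 arrangements in all, gave an exact two-sided p of 0.005, the smallest possible, for 5 of the 12 ratios examined. They are sparse CpGs against the next density class, intergenic against intron over all CpGs and over sparse ones, and poor against rich domains over all CpGs and over sparse ones. Adjusted over the 12, each was 0.012. The exact stratified permutation p was also 0.005 when any 1 of the 12 libraries was left out. That adds no support, since groups without overlap in both backgrounds stay at or near the smallest p whichever library is left out. The flank ratio had an exact stratified permutation p of 0.01, adjusted 0.02. These 5 ratios were chosen after the planned ones had been seen in the W796A background. Their p-values there, the stratified p and the adjusted 0.012 are thus not free of that choice. In WT against W465A alone each had an exact permutation p of 0.1, the smallest possible. At CpGs with at least 20 reads in the 6 libraries the ratio of poor to rich domains over all CpGs turned, with a change of 0.10 in place of -0.10, and that of intergenic to intron CpGs over all CpGs shrank from -0.08 to -0.01 with overlap (exact permutation p 0.6). The 3 ratios that rest on sparse CpGs kept their direction and stayed without overlap there.

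**Figure D3:**
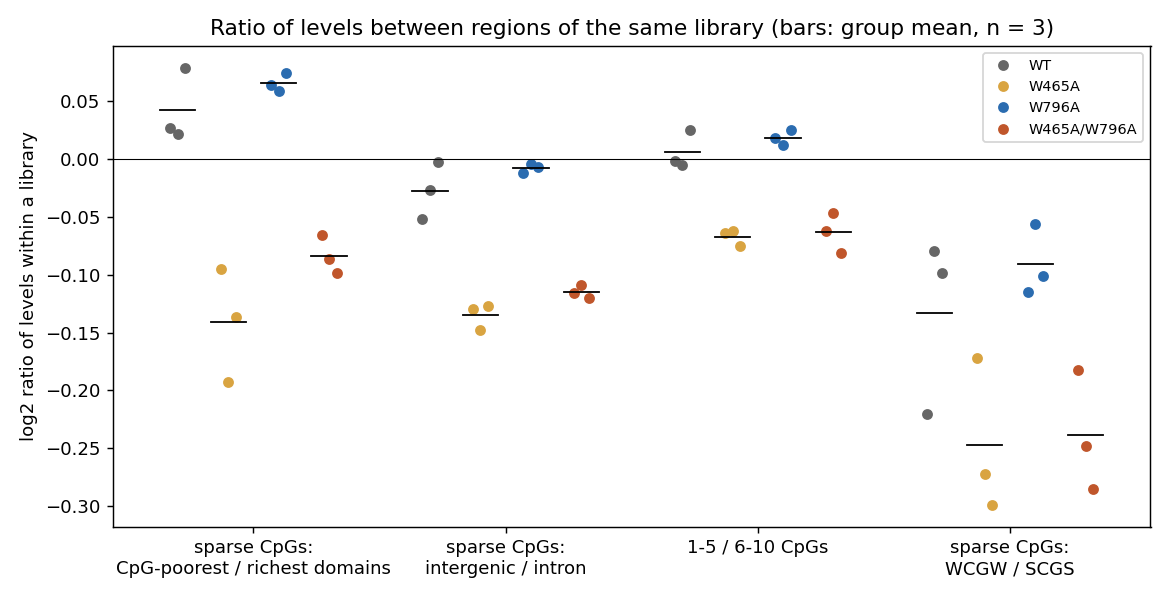
Log2 ratio of the levels of 2 regions within each library (vertical axis) for 4 pairs of regions, by genotype, with bars at the mean of 3; W and S stand for A or T and for C or G beside the CpG. For the first 3 pairs every library with W465A lies below every library without it, whether or not W796A is present.

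Windows of 1 Mb give the same ordering along the autosomes. Over CpGs with at most 10 CpGs within 250 bp, 2059 windows had at least 50 usable CpGs in the 12 libraries. The share of the W796A level left in a window ranged from 41.5% to 80.3%, with a median of 71.1%. With the windows in 4 classes from the fewest to the most reference CpGs, the mean share was 65.5%, 69.5%, 72.0% and 73.7%. W796A replicate 1 as a share of replicates 2 and 3 was between 72.6% and 73.6% in the 4 classes. Across windows, which share libraries and base composition, the share left had a Pearson r of 0.67 and a Spearman rho of 0.75 with the number of reference CpGs. It had an r of 0.76 and a rho of 0.68 with the share W465A left of the WT level, computed from libraries that do not enter the first share. W796A replicate 1 relative to its group had an r of 0.05 with the number of reference CpGs, and 0.12 without chromosomes 8 and 11, where the share left had an r of 0.66. All 3 double mutant libraries lay below all 3 W796A libraries in 1648 of the 2059 windows.

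Among windows with at least 100 usable CpGs, the least was left on chromosome 3 from 106000001 to 107000000, which holds the chitinase-like genes Chil3 and Chil4. There the W796A libraries had 61.2%, 85.7% and 80.2% and the double mutant 46.4%, 36.8% and 36.0%, which left 52.5%. The next was on chromosome 7 from 7000001 to 8000000, with vomeronasal receptor genes of the Vmn2r family, at 53.4%. A window on chromosome 7 from 18000001 to 19000000 with pregnancy-specific glycoprotein (Psg) genes kept 58.6%. At the other end, a window on chromosome 18 kept 80.3%, and the window on chromosome 8 from 48000001 to 49000000, with Tenm3, a teneurin of neuronal wiring, kept 79.5%. The window on chromosome 1 from 187000001 to 188000000, with Esrrg, which encodes an orphan nuclear receptor, came next at 79.2%. Its W796A libraries had 63.5%, 87.8% and 85.3% and its double mutant libraries 67.3%, 61.1% and 59.0%, so the groups overlapped. The window on chromosome 4 from 32000001 to 33000000 with Bach2, a transcriptional repressor of lymphocytes, kept 78.4%. These windows were picked by the share itself and are given without test.

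**Figure D4:**
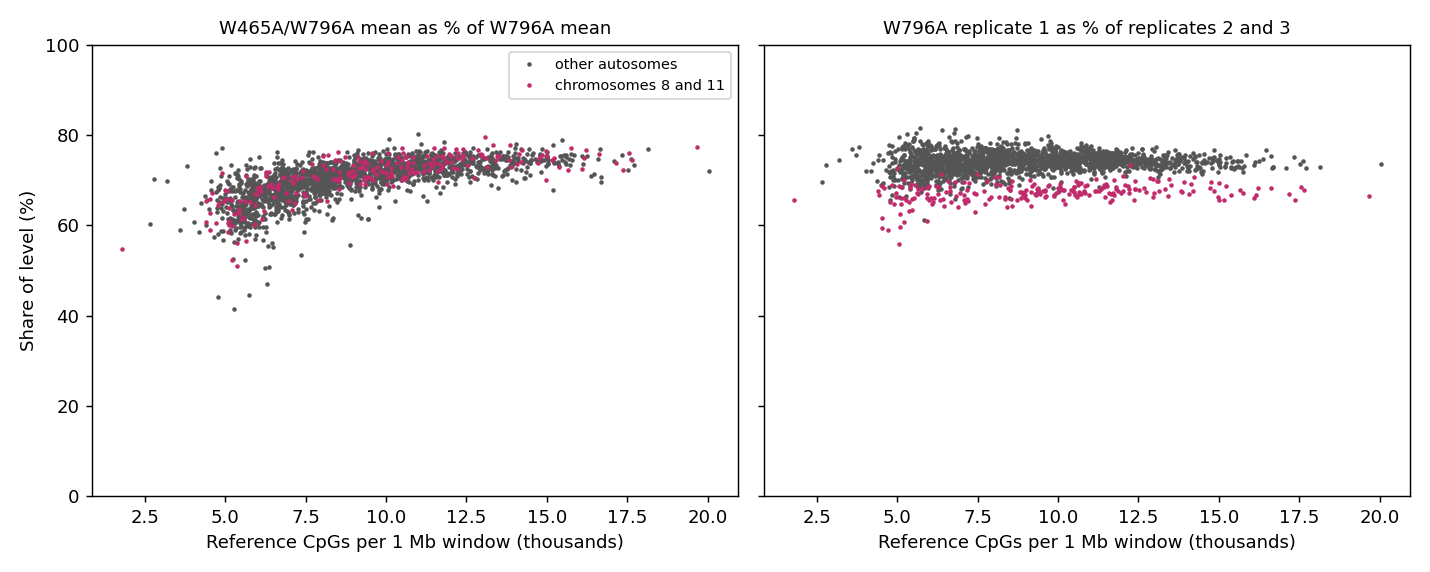
Share of level in percent against the number of reference CpGs per 1 Mb window, for 2059 autosomal windows; left, W465A/W796A mean of W796A mean, right, W796A replicate 1 of the mean of replicates 2 and 3. The left share climbs with CpG number, from a mean of 65.5% in the lowest of 4 classes to 73.7% in the highest, and the right one does not, but chromosomes 8 and 11 (pink) sit lower on the right.

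Chromosomes 8 and 11 were the autosomes on which the groups overlapped. W796A replicate 1 was at 67.3% and 66.7% of replicates 2 and 3 there, against 73.1% to 73.9% on the other autosomes. It had 42.4% on chromosome 8, below the 44.8% of double mutant replicate 1, and 39.9% on chromosome 11, below 42.4%. Chromosome 8 took 6.32% of the CpG calls of W796A replicate 1 and 5.56% and 5.48% of those of replicates 2 and 3. In the double mutant it took 5.27%, 7.81% and 7.72%, and chromosome 11 took 9.49%, 7.43% and 9.01%, against 6.66% to 7.59% in W796A. The libraries thus differ in how much of these chromosomes they hold, and the part of this in the levels was not tested. The shares of the level left were 73.3% and 72.0%, against 70.7% to 72.3% on the other autosomes. On the X chromosome 73.8% was left and the groups overlapped.

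Repeats did not lose uniformly. Repeat-masked CpGs as a whole kept 72.5% and other CpGs 71.5%, and the planned within-library log2 ratio of the 2 was 0.30, 0.30 and 0.31 in W796A and 0.32, 0.31 and 0.34 in the double mutant, with overlap (exact permutation p 0.2). CpG density divided them. Sparse repeat-masked CpGs kept 66.7%, less than the 68.8% of others. With over 20 CpGs within 250 bp and outside promoters, repeat-masked CpGs had 31.7%, 52.3% and 42.4% in W796A and 44.0%, 32.2% and 39.2% in the double mutant. The libraries were interleaved, and 91.4% of the level was left. CpGs of that density not in repeats had 11.9%, 20.5% and 16.3% in W796A and 11.9%, 8.80% and 9.95% in the double mutant, which left 63.0%.

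Within libraries the log2 ratio of dense repeats to other dense sequence was 1.41, 1.35 and 1.38 in W796A and 1.88, 1.87 and 1.98 in the double mutant. The change of 0.53 was far outside the spread of either group (exact two-sided permutation p 0.1, the smallest possible). In the other background the ratio was 2.10, 1.82 and 1.53 in the WT libraries and 1.67, 1.68 and 1.75 with W465A. The changes of the 2 backgrounds were 0.66 apart with a standard error of 0.17, a difference that was not tested. The stratified exact permutation test, which asks for an effect of W465A over both backgrounds together, gave a p of 0.115. This ratio too was chosen after the data were seen.

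One repeated sequence recurred among the tiles that were higher in the double mutant. The 3 tiles with the widest gap upward, all repeat-masked and intergenic in the basic gene annotation, lay 14782 bp from Nav3, 260439 bp from Ipo11 and 584285 bp from Gbe1. The Nav3 tile had 10.9%, 22.6% and 18.8% in W796A and 73.0%, 54.5% and 67.2% in the double mutant. The Ipo11 tile went from 17.8% ± 3.83 (SD, n = 3) to 53.7% ± 7.29 (SD, n = 3), and the Gbe1 tile from 17.4% ± 5.69 (SD, n = 3) to 50.3% ± 0.69 (SD, n = 3). Adjusted p in the fit of the 6 libraries was 0.0539, 0.0836 and 0.079, so none passed, and in the fit of all 18 it was 0.00823, 0.0157 and 0.0191. Pooled WT levels at the 3 were 60.96%, 55.6% and 54.1%, and W465A levels 31.8%, 16.98% and 10.1%.

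The longest stretch the 3 printed windows share is 38 bases, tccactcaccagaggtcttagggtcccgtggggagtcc, which has 4901 exact matches on either strand of the reference. Of all tested tiles 0.532% hold a match, and of the tiles in which every double mutant library lay above every W796A library 228 of 864 do, 26.4%. Of the 101578 tiles in which every double mutant library lay below, 25 do. Over the 15485 usable CpGs within 250 bp of a match the level was 26.9%, 48.5% and 33.2% in W796A and 53.5%, 36.9% and 48.8% in the double mutant. As a group mean the copies were thus higher with W465A added, 46.4% against 36.2%, though the libraries were interleaved. With W464A/W465A/W796A the level at the 9255 such CpGs usable in all libraries was 18.97% ± 4.15 (SD, n = 3), with W465A 17.9% ± 5.57 (SD, n = 3) and with WT 51.0% ± 18.2 (SD, n = 3). Without CpGs near a match, dense repeats outside promoters had 34.3%, 54.7% and 47.0% in W796A and 40.3%, 30.5% and 35.4% in the double mutant, interleaved as well. Reads from near-identical copies can be placed at the wrong one, so levels of single copies are uncertain. The stretch was found after the tiles were ranked and carries no test.

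Testing tile by tile gave few calls, and their number changed with the libraries and the method used. Of 283253 tiles of 1 kb with at least 3 usable CpGs, the quasi-binomial fit of the 6 libraries called 20 lower in the double mutant, 0.00706%, and 0 higher, 0.0%, at an adjusted p under 0.05 and at least 10 points. At an unadjusted p under 0.05 there were 87999. Every double mutant library lay below every W796A library in 35.9% of tiles and above in 0.305%. The libraries of W796A varied more, with a median overdispersion of 6.59 times the binomial variance against 1.89 in the double mutant. Without W796A replicate 1 the fit called 182163 lower and 310 higher, and without W796A replicate 2, W796A replicate 3 or any 1 of the double mutant libraries it called between 0 and 2 lower. A fit of all 18 libraries called 75007 lower, 26.5%, and 233 higher, 0.0823%, limma called 20950 and 49, and edgeR 5746 and 17. With an offset that removes the global level of each library the split was another, 2089 lower and 1009 higher. There the direction was set by the ratio of a tile's level to the global level, while the fit was on log odds. The 2 need not have the same direction.

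Because the called tiles are few, their genes are given, after their values were seen. Tiles were in, beside or nearest to Lmx1b, Pax7, Msx1, Uncx, Hoxa9, Emx1, Dbx1, Sox14, Sim1, Otx1, Sox9, Barx1 and Prdm6, which encode DNA-binding regulators of embryonic development, Cyp26b1, which degrades retinoic acid, Mest, Nefm, Ehbp1 and Zfp629, which had 2. Of the 20 tiles 12 overlapped a protein-coding gene, 9 had a usable CpG in a promoter, and 5 had any repeat-masked CpG. Their W796A means ranged from 13.7% at Sox9 to 73.1% at Dbx1, and their double mutant means from 0% at Mest to 11.7% at Dbx1. Pax7, a regulator of muscle and neural crest, went from 59.8% to 8.57% and Emx1, a cortical patterning factor, from 38.0% to 4.93%. The genes were not tested as a group.

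The tiles with the widest gaps downward were nearly emptied. In an intron of Osr1, a zinc finger gene of kidney and heart development (chromosome 12, 9576001 to 9577000), the W796A libraries had 85.5%, 85.9% and 78.0% and the double mutant 7.50%, 10.9% and 9.33%. W796A replicate 1 stood with its group here. At the Tfpi2 promoter (chromosome 6, 3968001 to 3969000), whose product inhibits serine proteases, the levels were 81.7%, 80.3% and 83.9% against 19.7%, 8.97% and 10.7%. Their adjusted p was 0.0501 each, just above the threshold, and 0.000259 and 0.00018 in the fit of all 18 libraries. The third lay 2858 to 3857 bp upstream of the H19 start, where the imprinting control region of H19 and Igf2 is known to lie, and 40254 bp from Mrpl23 (chromosome 7, 142581001 to 142582000). It had 62.6%, 92.6% and 87.3% in W796A and 4.83%, 3.13% and 1.35% in the double mutant, with an adjusted p of 0.0586.

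Calls were made at the next tiles. In Ehbp1, a gene of endocytic transport that adjoins Otx1 (chromosome 11, 22007001 to 22008000), the levels were 58.5%, 76.7% and 62.9% against 0.69%, 2.61% and 0.62%. At Nefm, which encodes a neurofilament subunit (chromosome 14, 68124001 to 68125000), they were 56.5%, 81.3% and 79.5% against 0.96%, 1.82% and 2.22% over 67 CpGs, and both tiles had an adjusted p of 0.0347. Coverage of these 5 tiles ranged from 50 to 1955 reads per library. The pooled WT levels were 53.5%, 42.3%, 41.4%, 35.1% and 29.2% in the order given, below each W796A mean. The tiles were picked for high W796A levels, so that is a description.

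Among the 4 highly methylated tiles that ended highest in the double mutant, the libraries overlapped in 3. The Smim20 tile (chromosome 5, 53385001 to 53386000) had 94.5%, 100% and 100% in W796A and 100%, 95.6% and 88.8% in the double mutant. The Pcdh10 tile (chromosome 3, 44996001 to 44997000) had 81.1%, 97.6% and 97.4% against 88.6%, 89.1% and 86.1%. The Dll1 tile (chromosome 17, 15257001 to 15258000) had 96.3% ± 3.15 (SD, n = 3) against 85.3% ± 2.11 (SD, n = 3), without overlap, and fell in the fit of all 18 libraries (adjusted p 0.0436) but not in that of the 6 (adjusted p 0.117). In the Efnb2 tile on chromosome 8, W796A replicate 1 alone was low, at 41.3% against 97.7% and 98.4%, while the double mutant had 95.5%, 93.9% and 88.3%. All 4 are intergenic with their CpGs in repeat-masked sequence, all of them or, for Dll1, 92.9%. They were picked for the highest levels in the double mutant.

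With tiles classed by their level in WT, the share left was larger where that level was higher. Tiles were put in classes by their level in the WT libraries, which are not compared here. Where WT had under 5%, W796A had 1.80% and the double mutant 0.69%, 38.5% of the level. From 5% to 20% in WT 41.9% was left, from 40% to 60% it was 69.4%, and from 90% to 100% it was 80.2%. In the class from 5% to 20% the W796A libraries had 9.76%, 18.3% and 13.6% and the double mutant 6.59%, 5.33% and 5.55%, with no overlap. In the top class the groups overlapped. W796A replicate 1 also varied along these classes, from 62.7% of the other replicates in the lowest to 76.2% in the highest, so the spread within W796A moved with these losses, and its part in them was not tested. Over the 1 Mb windows above, which hold CpGs of low density only, the share left had a Pearson r of -0.11 and a Spearman rho of -0.20 with the W796A level. That level is also the denominator of the share. It ran only from 68.7% to 78.9% between the percentiles 5 and 95 of the windows. These values thus cannot show whether the relation is absent there.

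Promoters, the 500 bp either side of a TSS, had low levels and lost a large part of them. Their CpGs had 5.51%, 8.88% and 7.34% in W796A and 4.72%, 4.08% and 4.11% in the double mutant, with no overlap, and 59.4% was left. In promoters with over 20 CpGs within 250 bp the means were 2.17% and 1.01%, which left 46.3%. The within-library log2 ratio of intergenic to promoter CpGs was 3.30, 3.13 and 3.30 in W796A and 3.45, 3.48 and 3.45 in the double mutant (exact permutation p 0.1, adjusted 0.171). With each read counted once in place of each CpG the change fell from 0.22 to 0.03 and the groups overlapped (exact permutation p 0.6). At the CpGs usable in all 12 libraries this ratio changed by 0.25 here and by 0.06 from WT to W465A. The stratified exact permutation p over both backgrounds was 0.03, adjusted 0.0514.

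Of 14296 promoters with at least 3 usable CpGs, 145 were called lower, 1.01%, and 1 higher, 0.00699%. Every double mutant library lay below every W796A library in 29.7% and above in 1.08%. The fit of all 18 libraries called 1248 lower, 8.73%. Leaving W796A replicate 1 out raised the 145 to 1478. Leaving out replicate 2 of W796A cut it to 19, leaving out its replicate 3 to 1, and leaving out any double mutant library to 0. The promoter called higher, named after its values were seen, was that of Gpa33, an intestinal cell surface antigen (chromosome 1, 166129738 to 166130738), at 9.52%, 16.7% and 11.5% against 44.8%, 37.2% and 47.9% over 4 CpGs. Its adjusted p was 0.046, and in the fit of all 18 libraries 0.08, which is no call.

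After Tfpi2, the promoters with the widest gap downward were those of Fv1, a retrovirus restriction gene, and of Miip, which share their window (chromosome 4, 147868479 to 147869479 for Fv1). The Fv1 promoter had 60.3%, 86.1% and 75.5% in W796A and 12.1%, 13.4% and 5.42% in the double mutant, with an adjusted p of 0.0438. The Nefm promoter had 47.1%, 72.8% and 76.4% against 0.79%, 1.16% and 0.96%, while the neighbouring neurofilament gene Nefl had at most 1.56% in any library. At Zfp629, a zinc finger gene (chromosome 7, 127614772 to 127615772), the levels were 48.7%, 49.2% and 61.5% against 3.06%, 3.25% and 1.68%, with an adjusted p of 0.0242. Wdr63 and Dnaaf3, both needed for the dynein arms of cilia, went from 69.8% ± 17.6 (SD, n = 3) to 10.5% ± 4.92 (SD, n = 3) and from 59.7% ± 12.7 (SD, n = 3) to 4.17% ± 0.56 (SD, n = 3). The Wdr63 promoter missed the threshold with an adjusted p of 0.0508. Olfr1033, an olfactory receptor gene, went from 58.6% ± 11.6 (SD, n = 3) to 5.70% ± 2.33 (SD, n = 3). The WT means were 55.9% at Fv1, 22.7% at Nefm, 22.5% at Zfp629, 18.1% at Wdr63, 27.3% at Dnaaf3 and 26.85% at Olfr1033, below each W796A mean. These promoters were picked for high W796A levels, so that is a description. Upward, Izumo2, of a sperm protein family, had 8.77%, 15.5% and 10.04% against 39.8%, 19.6% and 35.9% (adjusted p 0.0817, and 0.0349 in the fit of all 18 libraries), and Gramd1a, Foxr1 and Prss48 had double mutant means of 8.37%, 14.7% and 16.3% with no call.

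Hox promoters, a family chosen by prefix after the data were seen, kept 24.3% of their level against 59.9% over all protein-coding promoters. The mean over 34 covered genes of 39 was 9.03%, 13.7% and 10.6% in W796A and 2.16%, 2.84% and 3.09% in the double mutant. In 24 of the 34 every double mutant library lay below, beside 29.7% of all promoters, and in none did every one lie above. Of the 14290 protein-coding promoters covered, however, 10647 had under 5% in W796A. Among the 1498 from 5% to 20% every double mutant library lay below in 1008, and the mean went from 10.3% to 3.87%. At 20% or more it did so in all 6 Hox promoters, beside 1111 of 2145. The median difference was -2.92 points, against -0.38 over all protein-coding promoters. Calls were made for 4, beside 1.01% of all promoters. All 4 had 20% or more in W796A, where 103 of the 2145 protein-coding promoters were called lower. Of the 10647 under 5% in W796A, 0 were called lower. Hoxa9 went from 45.5% ± 9.06 (SD, n = 3) to 5.24% ± 2.96 (SD, n = 3), Hoxb3 from 73.2% ± 9.85 (SD, n = 3) to 26.6% ± 7.94 (SD, n = 3), Hoxa6 from 32.6% ± 4.43 (SD, n = 3) to 7.41% ± 3.17 (SD, n = 3) and Hoxb8 from 23.9% ± 4.64 (SD, n = 3) to 2.21% ± 0.79 (SD, n = 3). These genes pattern the body axis and have dense, mostly unmethylated promoters, of which 19 had under 5% in W796A.

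Imprinted genes, expressed from one parental allele and marked by methylation, had 28 of 32 promoters covered. Their mean was 13.5%, 16.7% and 19.5% in W796A and 5.81%, 6.07% and 5.65% in the double mutant, with no overlap, so that 35.4% was left. It rested on few genes: 18 of the 28 had under 5% in W796A and 8 had 20% or more. H19, a non-coding RNA gene, was the one called of the 28, beside 1.01% of all promoters. It was 1 of the 8 with 20% or more in W796A, beside 103 called lower of all 2145 protein-coding promoters at that level. It went from 63.4%, 94.7% and 83.3% to 8.33%, 11.1% and 8.70% over 3 CpGs, with an adjusted p of 0.045. Mest, of the hydrolase family, had 45.4%, 55.7% and 56.0% against 23.7%, 30.4% and 17.4% (adjusted p 0.051). The Mest tile called above (chromosome 6, 30738001 to 30739000) lies outside that promoter window. Over 14 CpGs, 7 of them in a promoter, it went from 30.9%, 25.1% and 36.25% to 0% in all 3 double mutant libraries. Airn, the antisense RNA of Igf2r, had 24.4% ± 9.76 (SD, n = 3) against 3.39% ± 1.96 (SD, n = 3). Nnat, a membrane proteolipid gene, had 27.6%, 11.1% and 73.2% in W796A, the widest spread among these, and at most 1.04% in the double mutant. The WT means were 43.3% at H19, 6.73% at Airn and 22.7% at Nnat, below their W796A means. At the Mest promoter window, not the tile, the WT mean was 52.5% and the W796A mean 52.4%. Where genes overlap a neighbour on the other strand, reads cannot be assigned to one of them.

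Germline genes, silenced by promoter methylation outside germ cells, had 31 of 37 promoters covered and a mean of 37.7%, 65.1% and 50.5% in W796A and 39.9%, 31.7% and 39.6% in the double mutant. The groups overlapped (exact permutation p 0.3). None was called, which at 1.01% of all promoters says little of 31. Of all 2145 protein-coding promoters with 20% or more in W796A 103 were called lower, beside 0 of the 27 germline ones. Of the 27 with 20% or more in W796A, 9 had every double mutant library below, beside 1111 of all 2145 protein-coding promoters at that level. Tdrkh, of the piRNA pathway, went from 21.3% ± 10.4 (SD, n = 3) to 3.04% ± 0.67 (SD, n = 3), whereas Sycp1, of the synaptonemal complex, had 34.4%, 69.0% and 48.0% against 56.0%, 32.1% and 50%. W796A replicate 1 was low at most of them. The differences fitted to pooled reads at Brdt, Hormad1, Sohlh2, Stk31, Sycp1, Sycp3, Tex19.1 and Tuba3a turned positive without W796A replicate 2. The difference of library means stayed negative at Brdt, Hormad1, Tex19.1 and Tuba3a. At Rpl10l the fitted difference was positive with all 6 libraries and turned negative without W796A replicate 1.

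The other lists had few methylated promoters, and their counts of calls stand beside 1.01% of all promoters. Of the 10647 protein-coding promoters under 5% in W796A, however, 0 were called lower. Pluripotency genes, which ES cells express, had 15 of 21 covered, 12 of them under 5% in W796A, with list means of 7.67% ± 1.11 (SD, n = 3) and 4.62% ± 1.75 (SD, n = 3). Prdm14 had 22.6% ± 0.66 (SD, n = 3) against 10.7% ± 4.93 (SD, n = 3), without a call. Esrrb had 63.2%, 76.7% and 83.3% against 10%, 50% and 55% over 4 CpGs, without overlap and without a call. Of trophoblast genes, markers of a cell type that ES cells should lack, 9 of 11 were covered, at 13.9% ± 3.38 (SD, n = 3) and 10.7% ± 2.08 (SD, n = 3), with 0 called. Elf5, whose promoter methylation separates embryonic from trophoblast cells, had 28.9%, 84.5% and 80.7% in W796A and 74.1%, 74.4% and 64.7% in the double mutant over 4 CpGs. Hand1 had 33.7%, 56.7% and 37.1% against 8.62%, 32.0% and 16.4% over 8 CpGs, without overlap. Embryonic lineage genes had 13 of 15 covered, at 14.2% ± 3.67 (SD, n = 3) and 7.96% ± 0.66 (SD, n = 3), with 1 called. Genes of the methylation and heterochromatin machinery had 29 of 35 covered, 28 of them under 5% in W796A, and 0 called. Methylation does not measure expression, and the cell type was not checked on RNA. Olfactory receptor promoters, 21 covered, had 66.5% ± 12.5 (SD, n = 3) against 41.8% ± 2.19 (SD, n = 3) with no overlap, and keratin promoters, 39 covered, 64.4% ± 14.7 (SD, n = 3) against 46.6% ± 4.15 (SD, n = 3) with overlap. These 2 families were chosen by prefix after the data were seen.

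**Figure D5:**
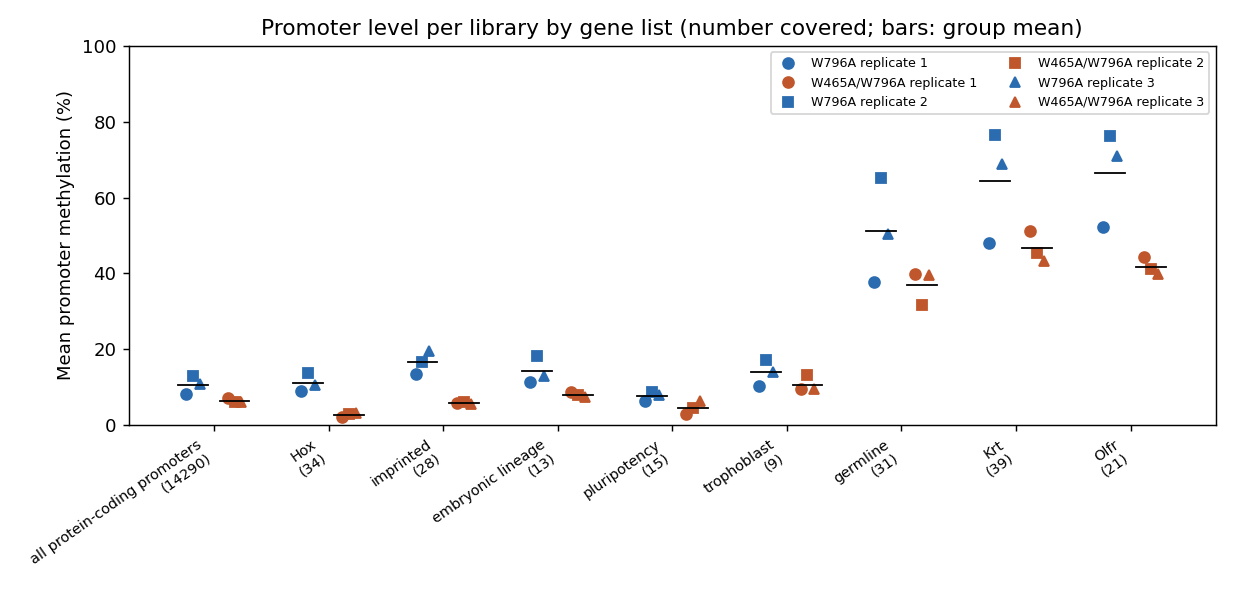
Mean promoter methylation in percent (vertical axis) of each library over the covered promoters of each list, whose number stands in brackets; blue is W796A, orange W465A/W796A, symbols mark the replicate and bars the mean of 3. Hox promoters lie at 9.03% to 13.7% in W796A and 2.16% to 3.09% in the double mutant, and germline promoters overlap.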

How the data were processed

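The deposited table gives 2 raw counts per CpG and library, the reads showing methylation and the total, without normalization by the authors. The submitters' processing notes name cutadapt 1.2.1, Bismark 0.18.1 and Bowtie 1.2 with mm10 and GRCm38; removal of duplicates is not given in the sources used here, so reads may not be independent molecules. Groups came from the sample titles. All 21867550 listed CpGs matched the GRCm38 reference; genes came from GENCODE vM21 and repeats from lower-case sequence.

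A level is methylated over all reads, averaged with each CpG counted once. Library values were compared by exact two-sided permutation, adjusted by Benjamini-Hochberg over 12 planned tests. Tiles and promoters with at least 3 usable CpGs were fitted by a quasi-binomial model with overdispersion squeezed as in limma's squeezeVar (Python 3.11.15, numpy 2.4.6, scipy 1.17.1), with 4 residual degrees of freedom, and called at an adjusted p under 0.05 and 10 points. limma 3.58.1 (0.5 added to counts) and edgeR 4.0.16 ran in R 4.3.3. Tested on simulated data over 283253 tiles, the fit called 0 of 100 tiles with a simulated shift of 20 points and 0 of 100 with one of 40 points, although 77 of the latter had an unadjusted p under 0.05. It gave 5.87% of unchanged tiles such a p. The simulation changed far fewer tiles than had a low p here, so it gives no rate of missed calls for this comparison.

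Named tiles have at least 5 usable CpGs and 50 reads per library: the 6 widest gaps down, the 3 widest up, and the 4 highest in the double mutant with 10 CpGs and a WT level of 80% or more, at most 1 per gene. Named promoters are the 8 widest gaps down and 4 up, and list members at 20% or more in W796A. Chromosome 18 was left out of this rule, and 1 tile that it selects is not reported here. The members and lists were chosen with earlier results of these data known. The density-step, intergenic, domain and dense-repeat ratios, the stratified permutation test, the repeated stretch and the families taken by prefix were added after the data were seen.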

Additional observations from a re-analysis of the deposited data

How the results depend on the processing

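The mean difference stayed negative under all alternatives, from -21.2 points without W796A replicate 1 to -4.18 points at 20 reads; the libraries overlapped at 10 reads (-10.4 points), at 20 reads and with reads counted once (-11.2 points). At 20 reads the difference in points between the sparsest and densest classes still changed by -21.2, without overlap. The density log2 ratio between these classes changed by 0.0199 at 10 reads and 0.0187 at 5 reads in all 18 libraries. It changed by -0.131 to 0.0124 leaving out 1 library. The shore log2 ratio changed by 0.0357 at 10 reads, 0.0675 at 20 reads and 0.031 at 5 reads in all 18 libraries, and by -0.0769 to 0.0245 leaving out 1 library; the repeat ratio changed by -0.00702 with reads counted once, and that of poor to rich domains by 0.10 at 20 reads. The cause of these turns was not tested. The flank, promoter and X log2 ratios kept their direction in the alternatives run, but the promoter ratio shrank to 0.03 with reads counted once. At 20 reads the intergenic ratio shrank to -0.01, the repeat ratio grew to 0.20 without overlap and the X ratio to -0.37.

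Tiles called lower were 1 with no squeezing, 0 at 10 reads, 0 with at least 1 CpG, 1 at 500 bp and 908 at 5 kb (17 higher). They were 75007 with all 18 libraries fitted (233 higher), 20950 by limma (49 higher), 5746 by edgeR (17 higher) and 2089 with an offset for the global level of the library (1009 higher). The offset fit was on log odds, while lower and higher were set by the ratio of a tile's level to the global level. The minimum of 10 points was on the difference without the offset. The 1009 are thus not shown to be tiles raised relative to the library's own level, and the same limit holds for promoters with the offset. Leaving out 1 library gave 0 to 182163 lower and 0 to 310 higher.

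Promoters called lower were 249 with no minimum difference, 75 at 25 points, 4 with no squeezing, 1248 with all 18 libraries, 89 with the offset (4 higher), 5 at 10 reads, 88 with at least 1 CpG, 883 at 1000 bp either side, 466 by limma and 646 by edgeR. Called higher were 0 with no squeezing, at 10 reads, with at least 1 CpG and by edgeR. Leaving out 1 library gave 0 to 1478 lower and 0 to 1 higher.

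With the replicate block 1 tile and 0 promoters were called lower and 0 promoters higher, and the sign-flip test of the mean difference had an exact p of 0.25, its smallest. Same-numbered libraries did not deviate together (r between -0.09 and -0.04 over tiles), so the numbers were not taken to pair them.

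Of 67 named tiles and promoters, 24 gained and 0 lost a call in the fit of all 18 libraries, and 11 lost it with no squeezing. Leaving out 1 library turned differences, fitted to pooled reads, that had not been called: Efnb2 -6.47 to 21.7 points, Elf5 -11.7 to 21.8, Rpl10l -9.46 to 10.7, Sycp1 -14.6 to 8.08, Sohlh2 -19.0 to 3.50, Sycp3 -18.7 to 1.96, Hormad1 -17.9 to 1.90, Stk31 -10.1 to 1.66, Brdt -17.1 to 0.85, Tex19.1 -25.3 to 0.43 and Tuba3a -19.97 to 0.41. A median of 57 reads per tile and library limits single tiles.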
